A study of Mus musculus with 5 samples.

Results

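The genes described here are the TNF and TNF receptor superfamilies and the TRAF adaptor proteins that carry the receptors' signal. They were taken by symbol: every annotated gene whose name begins with Tnfrsf or Tnfsf and a digit, and 16 genes of the same families that carry other names, such as Tnf, Ltb, Fas, Cd27, Cd40lg and Traf1. The rule found 48 of 57186 gene IDs, which were 17 ligands, 24 receptors, 6 TRAF adaptors and Tnfsf13os, an RNA antisense to the ligand genes Tnfsf13 and Tnfsf12. Their RNA was measured in follicular regulatory T (Tfr) cells, which were gated as live CD4+ cells positive for Foxp3, CXCR5, PD-1 and ICOS. The mice, from which spleens were taken, had been given imiquimod, a TLR7 agonist, 21 days earlier in both groups, and no library from untreated mice was analysed. The WT group (n = 3 libraries) came from Foxp3-GFP reporter mice. The Cebpa-KO group (n = 2 libraries) came from Foxp3-Cre Cebpa-flox/flox mice, in which Cre driven by Foxp3 removes Cebpa, which encodes the transcription factor C/EBP alpha, in all Foxp3-expressing cells and not in Tfr cells alone. Besides Cebpa, the Foxp3 allele therefore differed between the groups. Every library was made from a pool of mice. The sources used here give neither strain nor age.

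Ligands of the TNF superfamily are mostly membrane proteins that act as trimers and cluster their receptors on a neighbouring cell. The receptors have no enzyme activity. Some carry a death domain and can start cell death, and others recruit TRAF adaptors that turn on NF-kB and MAP kinases. Regulatory T cells are known for high levels of the costimulatory receptors OX40 (Tnfrsf4), GITR (Tnfrsf18), 4-1BB (Tnfrsf9) and TNFR2 (Tnfrsf1b), while CD40 ligand from follicular T cells is a main signal to germinal centre B cells.

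Several facts of the libraries touch the results. Aligned depth was 6.76 to 7.08 gigabases per library. Levels are given as scaled TPM, the deposited TPM, a level per transcript length and library total, after 1 scaling factor per library, and errors are SDs over libraries. Cebpa stood at 12.9, 17.7 and 12.8 in WT, against 0.317 and 0.550 in Cebpa-KO (two-sided exact permutation test, p = 0.1, the smallest that 10 splits allow). Foxp3 was 16.0 times lower in Cebpa-KO although both groups were sorted as Foxp3-positive. Xist stood at 11.4 and 10.7 in Cebpa-KO and at most at 0.0220 in WT, so sex followed genotype, and the part of sex cannot be told apart from that of genotype. WT replicate 3 stood apart from the other WT libraries in 6 stress-response genes, including Hspa1a and Fos, with sums of 2754 there, 199.9 and 219.9 in the other WT libraries, and 3704 and 3957 in Cebpa-KO. The 9 markers of T cells and of the sort summed to 10929 to 12393 in WT and 8326 to 8708 in Cebpa-KO, and 6 of them were lower by the test. In bulk samples, fewer cells of a type and less RNA per cell cannot be told apart.

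Of the 38 members with enough signal to be tested, 5 rose and 8 fell in Cebpa-KO (limma on log2(scaled TPM + 1), Benjamini-Hochberg adjusted p under 0.05 over 16254 genes). That was 34.2% of the tested members, where 19.7% of all tested genes were called, 9.93% higher and 9.82% lower. All 5 rises were ligands: Tnfsf8, Cd70, Tnfsf4, Tnfsf14 and Tnf. The falls were the ligands Ltb and Tnfsf11, the receptors Cd27, Tnfrsf1b, Tnfrsf1a, Tnfrsf13b and Tnfrsf26, and the adaptor Traf5. None of 19 tested receptors rose, although 7 had a positive and 12 a negative log2 fold change. The median log2 fold change was 0.37 over 13 tested ligands, -0.27 over the receptors and -0.14 over the 6 TRAF adaptors, beside 0.01 over all tested genes. In all 13 tested ligands the groups did not overlap, 9 being higher and 4 lower in Cebpa-KO. The same held for 12 of 19 receptors, 3 higher and 9 lower, and for 56.7% of all tested genes, 28.7% higher and 28% lower. Cd70, Tnfsf4 and Tnfrsf21 reached the tested set only through their level in Cebpa-KO, so that a difference was built into their entry. The same held for Ltbr, which reached the tested set only through its level in WT. Among the 34 members that reached it in both groups 3 rose and 8 fell.

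**Figure D1:**
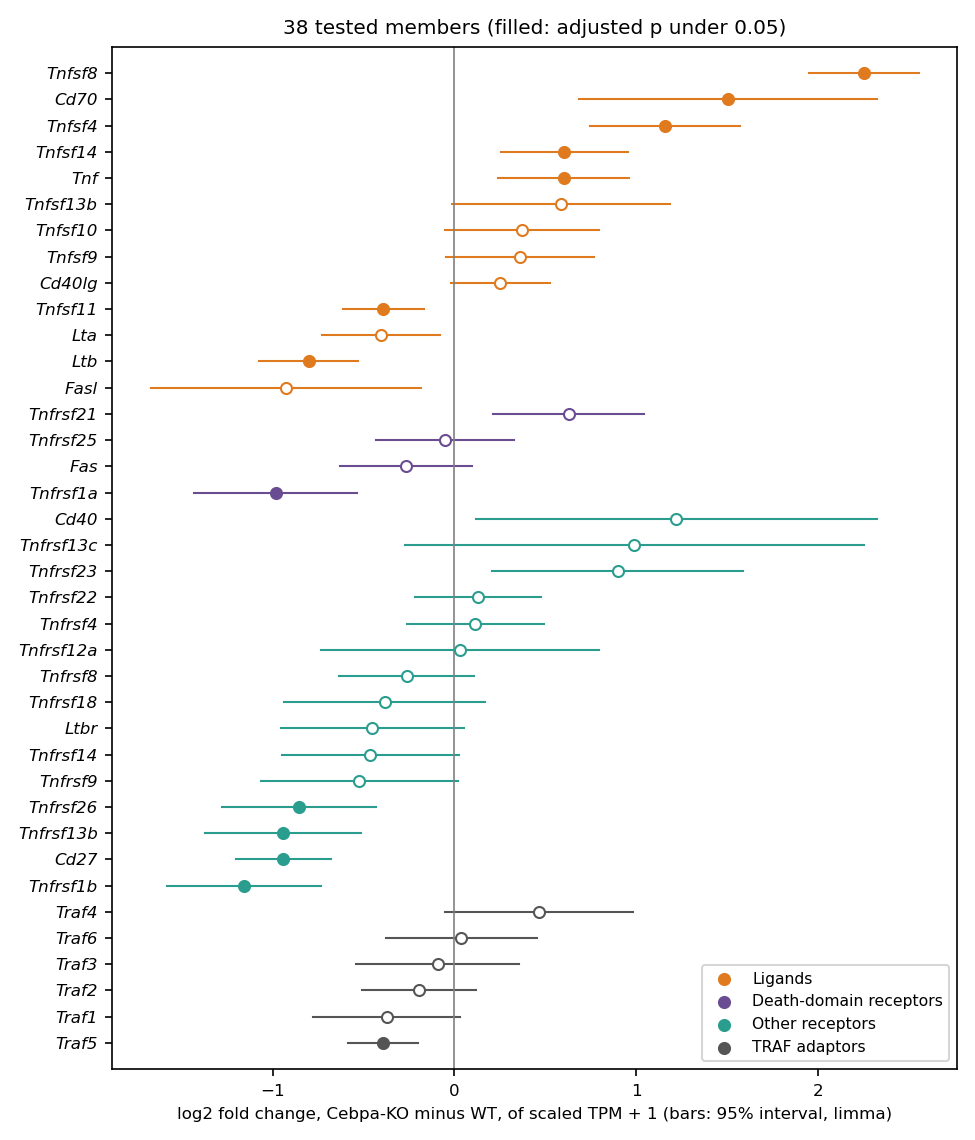
Log2 fold change (Cebpa-KO minus WT, of scaled TPM + 1) of the 38 tested members with its 95% interval from limma, grouped by role. Filled points passed an adjusted p of 0.05: 5 ligands lie to the right of 0, and 2 ligands, 5 receptors and Traf5 lie to the left.

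The calls rested on having both Cebpa-KO libraries. With Cebpa-KO replicate 1 or 2 left out, nearly all calls were lost, among members as among all genes. The log2 fold change of Tnfsf8 was then 2.36 or 2.16. With WT replicate 1 left out 2 members rose and 3 fell (12.4% of all genes called), with WT replicate 2 left out 1 rose and 2 fell (5.18%), and with WT replicate 3 left out 7 rose and 8 fell (25.1%). Set against WT replicate 3 alone, 1 rose and 3 fell (10.7%). With no filter on low values 2 rose and 2 fell (4.07% of all genes), with a TPM filter of 5 it was 3 and 8 (26.1%), with array weights 8 and 8 (30.9%), and with a replicate block 6 and 6 (14.8%). The replicate block takes WT replicate 3 out of the comparison, so it is not separate from leaving that library out. Over the 15 alternatives Tnfsf8 passed in 14, Cd27 in 13, Ltb in 12 and Tnfrsf1b in 10. Tnfsf4 passed in 10 of the 12 that tested it, and Cd70 in 7 of 14. The other called members passed in 7 to 9. Each called member kept its direction in every alternative that tested it.

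The 250 bases before the start of 5 member genes are printed: Tnfsf8, the largest rise, Tnfrsf1b and Cd27, large falls among abundant receptors, Ltb, the most abundant ligand, and Tnfrsf9, which holds matches to 2 of the motifs searched. Sequences are RefSeq's on GRCm38.p6, 5′ to 3′ in the direction of the gene, with motif matches in capitals. Tnfsf8 (chr4:63861285-63861534, minus strand), Tnfrsf1b (chr4:145246871-145247120, minus strand) and Cd27 (chr6:125237028-125237277, minus strand) hold no match. Ltb (chr17:35194257-35194506, plus strand) holds an NF-kB match, and Tnfrsf9 (chr4:150927749-150927998, plus strand) overlapping NF-kB matches and an AP-1 match.
Tnfsf8: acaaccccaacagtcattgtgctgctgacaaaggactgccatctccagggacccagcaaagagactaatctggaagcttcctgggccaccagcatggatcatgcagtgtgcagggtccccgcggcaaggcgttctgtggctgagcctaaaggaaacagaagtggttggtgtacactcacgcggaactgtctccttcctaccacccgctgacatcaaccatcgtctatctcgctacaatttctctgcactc
Tnfrsf1b: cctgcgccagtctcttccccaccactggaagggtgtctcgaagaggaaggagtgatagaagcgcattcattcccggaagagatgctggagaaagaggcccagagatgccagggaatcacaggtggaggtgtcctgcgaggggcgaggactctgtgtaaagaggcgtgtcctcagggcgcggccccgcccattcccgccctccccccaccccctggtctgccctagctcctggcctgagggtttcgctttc
Cd27: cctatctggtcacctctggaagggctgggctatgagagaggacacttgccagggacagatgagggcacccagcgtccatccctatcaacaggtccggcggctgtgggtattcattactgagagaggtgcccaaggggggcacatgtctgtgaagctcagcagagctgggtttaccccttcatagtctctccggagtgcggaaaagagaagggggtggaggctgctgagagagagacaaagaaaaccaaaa
Ltb: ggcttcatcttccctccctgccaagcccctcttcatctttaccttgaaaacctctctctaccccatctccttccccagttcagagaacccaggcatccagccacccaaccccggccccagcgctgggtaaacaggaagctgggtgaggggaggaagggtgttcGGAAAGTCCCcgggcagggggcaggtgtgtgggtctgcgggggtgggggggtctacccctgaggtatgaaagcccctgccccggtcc
Tnfrsf9: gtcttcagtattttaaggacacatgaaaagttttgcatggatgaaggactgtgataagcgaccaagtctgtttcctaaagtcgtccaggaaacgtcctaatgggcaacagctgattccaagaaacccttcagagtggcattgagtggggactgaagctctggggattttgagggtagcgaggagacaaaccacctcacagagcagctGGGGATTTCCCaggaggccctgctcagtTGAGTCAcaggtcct

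Motifs were searched on both strands in 41 such windows of 37 members and in all 32841 windows of the table. The C/EBP letters TTGCNNAA stood in 1 member window and in 9.57% of all windows. That window belonged to Tnfrsf23, whose level is given further on, and the match is shown in 40 bases at chr7:143685932-143685971 on the minus strand.
Tnfrsf23: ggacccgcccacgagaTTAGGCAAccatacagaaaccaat
The NF-kB consensus stood in 4 member windows (Ltb, Tnfrsf8, Tnfrsf9 and Traf3) and in 3.90% of all windows. The AP-1 letters TGANTCA stood in 6 member windows, those of Fas, Tnfrsf8, Tnfrsf9, Tnfsf13, Tnfsf13b and Tnfsf14, and in 6.75% of all windows. Of these genes Ltb fell and Tnfsf14 rose. A match is a description of letters and not a binding site.

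Among the ligands, Tnfsf8, the CD30 ligand found on activated T cells, showed the largest change (ENSMUSG00000028362, mm39 chromosome 4, 63749545 to 63779584). It stood at 22.9, 19.1 and 22.1 in WT, against 98.1 and 113 in Cebpa-KO. The lowest Cebpa-KO library was thus far above the highest WT library, and WT replicate 3 lay between the other WT libraries. The mean was 4.95 times higher in Cebpa-KO, with a log2 fold change of 2.25 (standard error 0.12, 95% interval 1.95 to 2.56, adjusted p = 0.00281). Leaving out Cebpa-KO replicate 2 gave 2.16 at an adjusted p = 0.0512. Its receptor Tnfrsf8, which is CD30, stood at 27.2, 30.8 and 37.2 in WT, against 25.5 and 26.7 in Cebpa-KO and did not pass (log2 fold change -0.26, 95% interval -0.64 to 0.11, adjusted p = 0.256).

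Tnf itself, the founding cytokine of the family, stood at 43.0, 34.6 and 46.8 in WT, against 61.5 and 64.6 in Cebpa-KO (ENSMUSG00000024401, chromosome 17, 35418357 to 35420983). The groups did not overlap, and the mean rose 1.52-fold (log2 fold change 0.60, standard error 0.14, adjusted p = 0.0419). The adjusted p was 0.0569 without an intensity trend and 0.0661 without WT replicate 2. Tnfsf14, or LIGHT, a ligand of HVEM and of the lymphotoxin beta receptor, stood at 6.92, 6.35 and 5.66 in WT, against 10.6 and 9.62 in Cebpa-KO (ENSMUSG00000005824, chromosome 17, 57496492 to 57501177). Its log2 fold change was 0.61 (standard error 0.14, adjusted p = 0.0381), and its call ended with a replicate block, at an adjusted p = 0.0868.

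Cd70 and Tnfsf4 rose at low levels, and both reached the tested set only through Cebpa-KO. Cd70 encodes the ligand of CD27 and stood at 0.259, 0.327 and 1.31 in WT, against 2.81 and 4.19 in Cebpa-KO (ENSMUSG00000019489, chromosome 17, 57452997 to 57456777). WT replicate 3 was the highest of the WT libraries, yet below both Cebpa-KO libraries. The log2 fold change was 1.505 (standard error 0.33, adjusted p = 0.0332). It was 0.94 against WT replicate 3 alone (adjusted p = 0.118), and it moved to 2.56 and 0.59 with pseudocounts of 0.1 and 5. Tnfsf4, the OX40 ligand of activated antigen-presenting cells and some T cells, stood at 0.488, 0.447 and 0.701 in WT, against 2.22 and 2.69 in Cebpa-KO (ENSMUSG00000026700, chromosome 1, 161222980 to 161245981). The groups lay apart, with a log2 fold change of 1.16 (standard error 0.16, adjusted p = 0.0129), which was 2.00 and 0.43 with pseudocounts of 0.1 and 5. At these levels the estimated coverage, the mean number of reads over a base, was 0.753 to 12.4 for Cd70 and 1.37 to 7.95 for Tnfsf4. It is the deposited FPKM times 1 factor per library, so it follows the level and is no separate measure of read support.

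Both genes can be made by B cells or other antigen-presenting cells, so 9 B cell markers were set beside them. Those summed to 138, 137 and 191 in WT, against 268 and 59.6 in Cebpa-KO. Cd79a, a chain of the B cell receptor, was lowest of all libraries in Cebpa-KO replicate 2, at 12.5, against 86.2 in Cebpa-KO replicate 1 and 14.3 to 40.6 in WT. Cd70 and Tnfsf4 were highest of all libraries in that same Cebpa-KO replicate 2. Among the 6 dendritic cell markers, the sum was 3.13 to 6.26 in WT and 6.13 to 7.16 in Cebpa-KO, most of it Zbtb46. Siglech stood at 0.486 in Cebpa-KO replicate 1 and at most at 0.0402 in the other libraries, and Xcr1 at 0.303 and 0.307 in Cebpa-KO and at most at 0.177 in WT. Clec9a was at 0 in WT and at 0.0162 and 0.0572 in Cebpa-KO. The groups overlapped in Itgax, at 0.346, 0.0847 and 0.364 in WT, against 0.325 and 0.0179 in Cebpa-KO. They overlapped also in Flt3, at 0.0366, 0.0241 and 0.215 in WT, against 0.241 and 0.118 in Cebpa-KO. The part of these cells' RNA in the rises of Cd70 and Tnfsf4 was not tested.

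**Figure D2:**
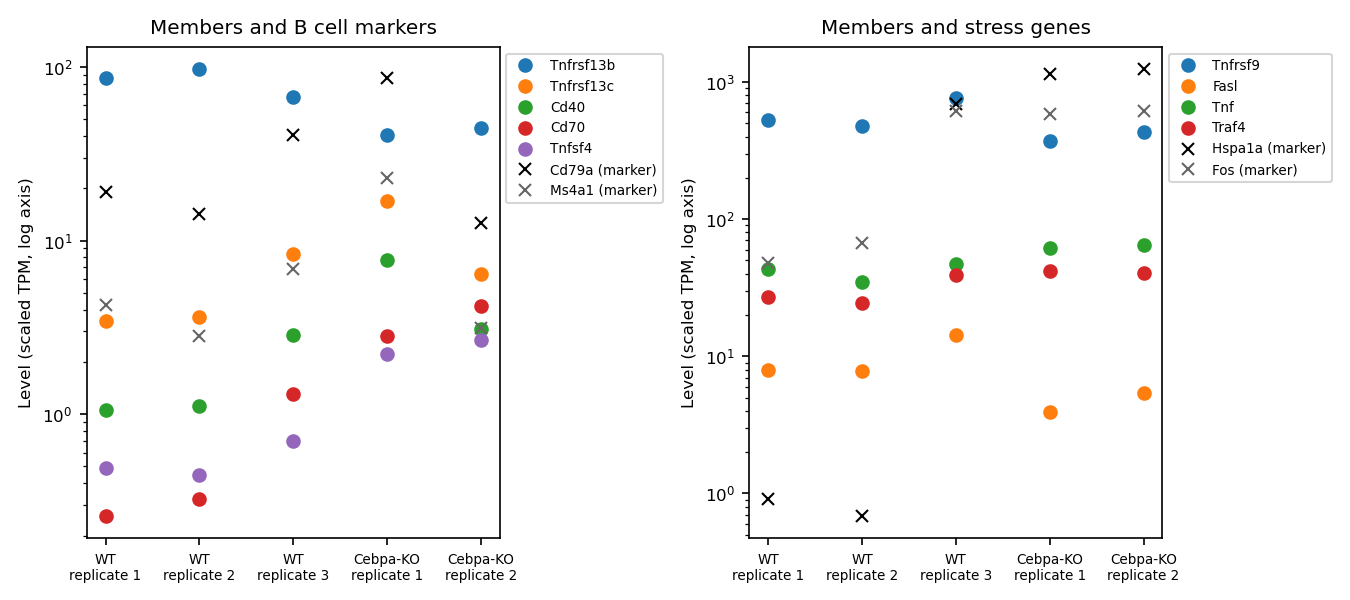
Level (scaled TPM, log axis) in each of the 5 libraries of members (filled points) beside 2 B cell markers (left, crosses) and 2 stress-response genes (right, crosses). Tnfrsf13c and Cd40 were highest in Cebpa-KO replicate 1, where Cd79a was at 86.2, whereas Cd70 and Tnfsf4 were highest in Cebpa-KO replicate 2, where Cd79a was at 12.5. Tnfrsf9 and Fasl were highest in WT replicate 3.

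Ltb, the membrane anchor of the lymphotoxin heterotrimer that organises lymphoid tissue, was by far the most abundant ligand, at rank 50 of all genes in WT and 113 in Cebpa-KO (ENSMUSG00000024399, chromosome 17, 35413415 to 35415296). It stood at 1544, 1489.8 and 1710.3 in WT, against 851 and 964 in Cebpa-KO. Every WT library was above both Cebpa-KO libraries, and the mean fell 1.74-fold (log2 fold change -0.80, standard error 0.11, adjusted p = 0.0121). Its call ended without Cebpa-KO replicate 1 or 2, at adjusted p = 0.108 and 0.0849. Its receptor Ltbr, made mainly by stromal and myeloid cells, was at 1.39 or less in every library. Tnfsf11, which is RANKL, a cytokine for dendritic cells and osteoclasts, stood at 42.2, 39.1 and 42.6 in WT, against 32.0 and 30.4 in Cebpa-KO (ENSMUSG00000022015, chromosome 14, 78514885 to 78545483). The spread within each group was small, and the fall was 1.32-fold (log2 fold change -0.39, standard error 0.09, adjusted p = 0.0365). It ended with no trend, at an adjusted p = 0.0561, and with a replicate block, at 0.0795. Its receptor Tnfrsf11a was at 0.138 or less.

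Other ligands at sizeable levels did not pass. Cd40lg, whose product signals to B cells through CD40, stood at 55.8, 46.0 and 48.1 in WT, against 58.9 and 60.1 in Cebpa-KO (log2 fold change 0.25, 95% interval -0.02 to 0.52, adjusted p = 0.153). It lies on chromosome X, and the groups differed in sex. Lta, the soluble lymphotoxin alpha, stood at 57.5, 45.8 and 47.2 in WT, against 39.5 and 35.6 in Cebpa-KO (log2 fold change -0.40, adjusted p = 0.0833). Tnfsf9, the 4-1BB ligand, stood at 16.0, 14.6 and 19.8 in WT, against 19.96 and 23.5 in Cebpa-KO (log2 fold change 0.36, adjusted p = 0.172). The groups did not overlap in any of these, and none passed the threshold over all genes. Fasl, the death ligand of cytotoxic cells, was at 7.91, 7.87 and 14.3 in WT, against 3.91 and 5.39 in Cebpa-KO (log2 fold change -0.93, 95% interval -1.67 to -0.19, adjusted p = 0.0822). WT replicate 3, the WT library with high stress genes, held its highest value. The stress genes summed to 3704 and 3957 in Cebpa-KO, where Fasl was lowest, and their part was not tested. The 5 markers of NK and CD8 T cells summed to 64.6, 60.1 and 52.2 in WT and 27.4 and 26.1 in Cebpa-KO, and Klrb1c among them fell (adjusted p = 0.0055). The part of these cells in the Fasl values was not tested. Tnfsf10, or TRAIL, and Tnfsf13b, the B cell survival factor BAFF, had log2 fold changes of 0.37 and 0.59 and did not pass (adjusted p = 0.173 and 0.139).

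Taken as shares of the summed level of the 17 ligands, Ltb made up 85.5% to 86.9% in WT and 71.3% and 72.6% in Cebpa-KO. Tnfsf8 made up 1.11% to 1.27% in WT and 8.23% and 8.51% in Cebpa-KO, and Tnf went from 2.02% to 2.38% to 5.16% and 4.86%. The summed ligand level was 1829 ± 128 in WT and 1260.5 ± 96.3 in Cebpa-KO. These shares follow from the levels already given and were not tested.

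**Figure D3:**
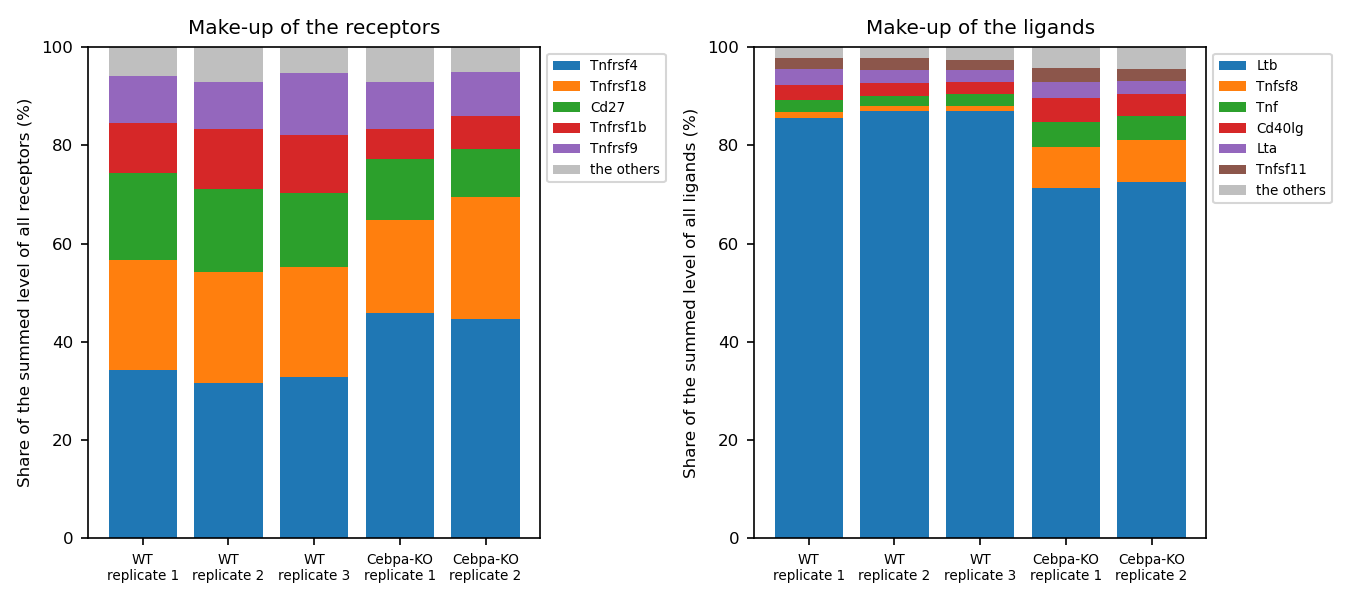
Share (%) of the summed scaled TPM of the 24 receptors (left) and the 17 ligands (right) held by each named gene in each of the 5 libraries. Tnfrsf4 holds 31.7% to 34.3% of the receptors in WT and 45.8% and 44.7% in Cebpa-KO, and among the ligands Tnfsf8 holds a larger and Ltb a smaller share in Cebpa-KO.

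The receptor side was carried by 5 costimulatory receptors, which together made up 92.8% to 94.98% of the summed receptor level in every library. Tnfrsf4, Tnfrsf18, Cd27, Tnfrsf1b and Tnfrsf9 all ranked among the 201 most abundant genes in WT. Tnfrsf4, the OX40 receptor, which sustains effector and regulatory T cells, stood at 1935, 1569 and 1985 in WT, against 1800.5 and 2161 in Cebpa-KO, at rank 42 and 32 of all genes. Its groups overlapped, and its log2 fold change of 0.12 had a 95% interval of -0.26 to 0.49 (adjusted p = 0.608), which spans rises and falls. The sign turned to -0.01 without Cebpa-KO replicate 2. Tnfrsf18, or GITR, stood at 1254, 1113 and 1357 in WT, against 747 and 1203 in Cebpa-KO. The 2 Cebpa-KO libraries disagreed: the second lay within the WT range and the other below it (log2 fold change -0.38, 95% interval -0.94 to 0.17, adjusted p = 0.260). Leaving out Cebpa-KO replicate 1 or 2 moved the value to -0.04 or -0.72.

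Cd27, a receptor of T and B cell priming whose ligand is CD70, was lower in both Cebpa-KO libraries than in any WT library (ENSMUSG00000030336, chromosome 6, 125209585 to 125213973). It stood at 1003, 835 and 918 in WT, against 486 and 468 in Cebpa-KO. The Cebpa-KO libraries were close to each other and 1.93 times lower in the mean (log2 fold change -0.94, standard error 0.10, adjusted p = 0.00809). Without Cebpa-KO replicate 1 or 2 the adjusted p was 0.0758 and 0.0848. Cd27 overlaps Vamp1 on the other strand, and no source used here gives the strand setting. Vamp1 was at 28.2 in WT and 7.95 in Cebpa-KO, and its part in the level of Cd27 was not tested.

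Tnfrsf1b, or TNFR2, the TNF receptor that promotes the survival and expansion of regulatory T cells, stood at 578, 607 and 706 in WT, against 239 and 330.3 in Cebpa-KO (ENSMUSG00000028599, chromosome 4, 144940033 to 144973440). The mean was 2.22 times lower, the largest fall among the tested members (log2 fold change -1.16, standard error 0.17, adjusted p = 0.0138). Without Cebpa-KO replicate 1 or 2 it stood at -0.92 and -1.39, with adjusted p = 0.0893 and 0.0708. Tnfrsf1a, or TNFR1, the death-domain receptor for the same cytokine, stood at 24.7, 21.6 and 20.002 in WT, against 12.7 and 8.95 in Cebpa-KO (ENSMUSG00000030341, chromosome 6, 125326325 to 125339447). No library of one group reached the other, with a log2 fold change of -0.98 (standard error 0.18, adjusted p = 0.0224). Both receptors of TNF were thus lower in the libraries in which Tnf was higher. T cell markers were lower in the same libraries: Cd3e stood at 1560.2, 1536 and 1768 in WT, against 1189 and 1220.4 in Cebpa-KO, and the part of this difference in the falls of Cd27, Tnfrsf1b and Tnfrsf1a was not tested.

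Tnfrsf9, the activation-induced receptor 4-1BB, stood at 529, 478 and 762 in WT, against 373 and 433 in Cebpa-KO. All Cebpa-KO values were below WT, but WT replicate 3 alone was far above the rest. The difference did not pass (log2 fold change -0.52, 95% interval -1.06 to 0.02, adjusted p = 0.143). It was -0.33 without WT replicate 3 and -0.93 against WT replicate 3 alone, where the adjusted p was 0.0487.

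Of the receptors of BAFF and APRIL, Tnfrsf13b alone passed. Tnfrsf13b, or TACI, known from B cells, stood at 86.6, 96.8 and 66.7 in WT, against 40.4 and 44.6 in Cebpa-KO (ENSMUSG00000010142, chromosome 11, 61017581 to 61040198). It was 1.96 times lower in Cebpa-KO (log2 fold change -0.94, standard error 0.17, adjusted p = 0.0224), and the WT library nearest to Cebpa-KO was replicate 3, against which alone the value was -0.65 (adjusted p = 0.0537). Of the 9 B cell markers Cd22 fell as well, from 56.7, 66.3 and 65.9 in WT to 20.2 and 4.69 in Cebpa-KO (adjusted p = 0.0311), and none of the others passed. Their part in the fall of Tnfrsf13b was not tested. Tnfrsf13c, the BAFF receptor of mature B cells, stood at 3.42, 3.62 and 8.42 in WT, against 16.8 and 6.39 in Cebpa-KO. Cd40, the B cell and antigen-presenting cell receptor of CD40 ligand, stood at 1.05, 1.11 and 2.87 in WT, against 7.74 and 3.08 in Cebpa-KO. Neither passed (adjusted p = 0.213 and 0.107), and both were highest in Cebpa-KO replicate 1 and next in order in WT replicate 3 or Cebpa-KO replicate 2, while Cd79a was highest in Cebpa-KO replicate 1 and then WT replicate 3. Without Cebpa-KO replicate 1 the log2 fold change of Cd40 went from 1.22 to 0.68 and that of Tnfrsf13c from 0.99 to 0.36. The part of B cell RNA in these differences was not tested. Tnfrsf17, or BCMA of plasma cells, stayed at 0.909 or less in every library and was not tested.

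The other death-domain receptors did not pass. Fas, which removes activated lymphocytes, stood at 84.3, 88.0 and 96.2 in WT, against 85.8 and 64.0 in Cebpa-KO, with overlapping groups (log2 fold change -0.27, 95% interval -0.63 to 0.10, adjusted p = 0.239). Tnfrsf25, or DR3, the receptor through which TL1A expands regulatory T cells, stood at 50.1, 46.2 and 36.9 in WT, against 40.2 and 44.9 in Cebpa-KO. Its interval ran from -0.43 to 0.33 (adjusted p = 0.827), and its sign differed between alternatives. Tnfrsf21, or DR6, was at 0.513 to 0.597 in WT, against 1.66 and 1.14 in Cebpa-KO and just missed the threshold (log2 fold change 0.63, adjusted p = 0.0531), passing with no trend and with array weights.

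The chromosome 7 group of Tnfrsf26, Tnfrsf22 and Tnfrsf23, of which Tnfrsf22 and Tnfrsf23 are known as decoy receptors for TRAIL, gave different values for neighbouring genes. Tnfrsf26 stood at 31.7, 31.4 and 23.5 in WT, against 16.6 and 14.2 in Cebpa-KO (ENSMUSG00000045362, 143161396 to 143182459). It fell 1.87-fold (log2 fold change -0.86, standard error 0.17, adjusted p = 0.0267). Tnfrsf22 was at 8.19 to 9.79 in WT, against 10.7 and 9.23 in Cebpa-KO (log2 fold change 0.13, 95% interval -0.22 to 0.47). Tnfrsf23, the gene with the C/EBP letters printed earlier, stood at 2.72, 4.62 and 5.62 in WT, against 7.90 and 9.47 in Cebpa-KO, without overlap but short of the threshold (log2 fold change 0.90, adjusted p = 0.0744). It passed without WT replicate 3, at 1.07 (adjusted p = 0.0406), and also with array weights. It passed with a replicate block too, which likewise takes WT replicate 3 out of the comparison and is no separate result. Tnfrsf22 and Tnfrsf23 share 104 50-base words, 7.57% and 10.99% of the words of their GENCODE M21 transcripts, so their reads can in part not be placed with certainty. All 3 overlap E230032D23Rik on the other strand, which was at 11.7 in WT and 7.34 in Cebpa-KO.

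The remaining members were low. Tnfrsf14, or HVEM, was at 7.59 to 9.95 in WT, against 7.40 and 5.33 in Cebpa-KO (log2 fold change -0.46, adjusted p = 0.148), and Tnfrsf12a, the TWEAK receptor, at 3.11 to 6.65 in all libraries with overlapping groups. Untested were 10 members: Tnfrsf10b, Tnfrsf17, Tnfrsf11a, Tnfrsf11b, Tnfrsf19, Tnfsf12, Tnfsf13, Tnfsf15, Tnfsf18 and Tnfsf13os. None of these exceeded 1.30 in any library, and Tnfsf18, the GITR ligand, was listed at 0 in all 5. Tnfsf13os was at 0.0636 to 0.0738 in WT, against 1.09 and 0.466 in Cebpa-KO, but it overlaps Tnfsf13 and Tnfsf12 on the other strand. Tnfsf13 was at 0.0979 to 0.160 in WT, against 0.280 and 0.196 in Cebpa-KO. Tnfsf12 was at 0.159 or less in WT, against 0.0870 and 0.221 in Cebpa-KO. The strand setting is not given, and the part of the other strand's reads in these values was not tested.

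**Figure D4:**
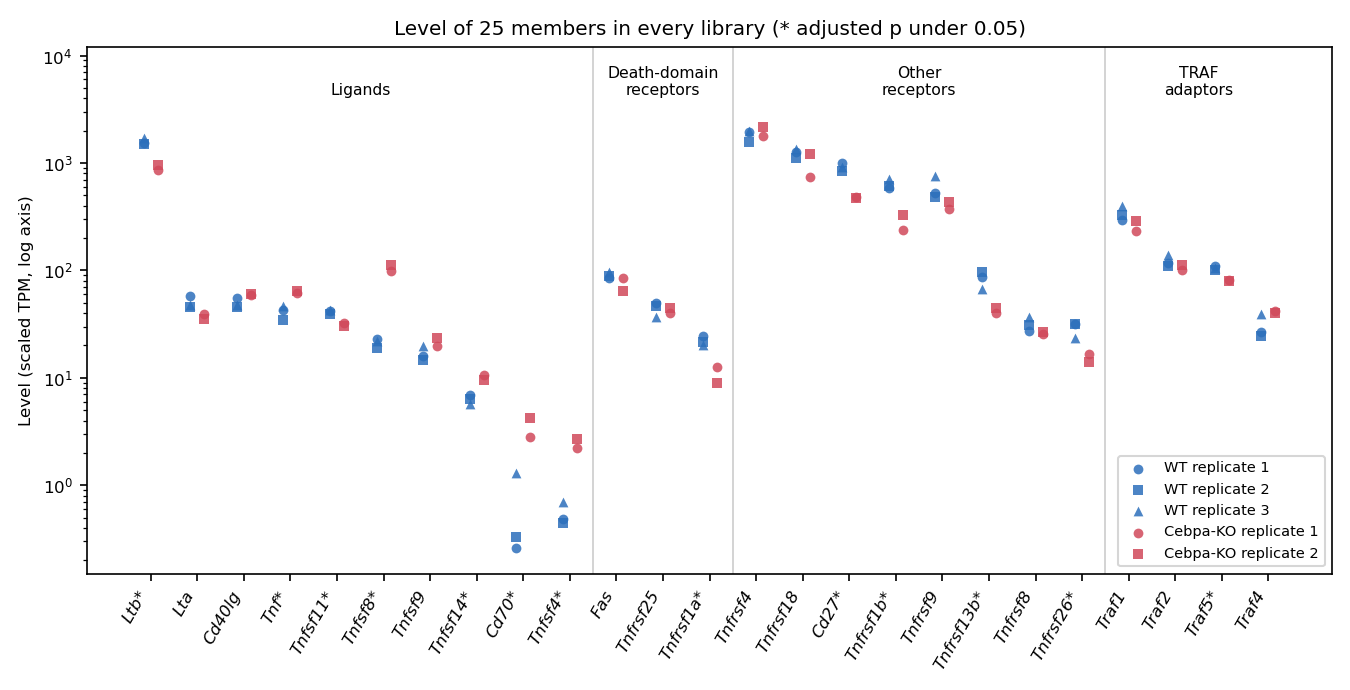
Level (scaled TPM, log axis) in every library of the 25 members that passed the test or had a mean of at least 20 in either group, grouped by role and in falling order of WT level. Blue points are the 3 WT and red points the 2 Cebpa-KO libraries, and an asterisk marks an adjusted p under 0.05. Ltb and the 5 costimulatory receptors stand highest, and Tnfsf8 shows the widest gap between the groups among genes above 20.

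Of the 6 TRAF adaptors 1 passed. Traf5, which binds CD27, OX40 and CD40 among others, stood at 110.2, 102 and 105 in WT, against 81.3 and 78.8 in Cebpa-KO (ENSMUSG00000026637, chromosome 1, 191729166 to 191776868). The libraries of each group were close together, and it fell 1.32-fold (log2 fold change -0.39, standard error 0.08, adjusted p = 0.0260). Its call ended with no trend, at an adjusted p = 0.0523, and with a replicate block, at 0.0579. Traf1, an NF-kB target that restrains and tunes TNFR2 signalling, was the most abundant, at 297, 325 and 397 in WT and 233 and 291 in Cebpa-KO (log2 fold change -0.37, adjusted p = 0.159). Traf2, the central adaptor of TNF receptors, was at 117, 109.9 and 139 in WT, against 99.98 and 112 in Cebpa-KO, with overlapping groups (adjusted p = 0.305). Traf4 was at 26.9, 24.5 and 38.8 in WT, against 41.9 and 40.3 in Cebpa-KO. WT replicate 3 lay near the Cebpa-KO libraries. The difference was 0.46 (adjusted p = 0.165) with all libraries, 0.65 without WT replicate 3 (adjusted p = 0.0156) and 0.07 against WT replicate 3 alone. It passed also with array weights. It passed with a replicate block too, which likewise takes WT replicate 3 out of the comparison and is no separate result. Traf3 and Traf6, at 10.5 to 16.9 in all libraries, had log2 fold changes of -0.09 and 0.04.

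Ligands and receptors can be set side by side as pairs. Among ligands that rose, the ligand rose and the receptor fell for Cd70 with Cd27 and for Tnf with both Tnfrsf1a and Tnfrsf1b. For Tnfsf8 with Tnfrsf8 and for Tnfsf4 with Tnfrsf4 the ligand rose and the receptor did not pass. Cd70 and Tnfsf4 reached the tested set only through Cebpa-KO, so their rises give these pairs no support. Ltbr reached it only through WT, so its negative value gives no support to its pairs with Tnfsf14 and Ltb. Tnfsf14 rose while its receptors Tnfrsf14 and Ltbr had log2 fold changes of -0.46 and -0.45 that did not pass. Some other pairs had log2 fold changes of 1 sign: Ltb and Ltbr -0.80 and -0.45, Lta -0.40 with Tnfrsf1a -0.98 and Tnfrsf1b -1.16, Fasl and Fas -0.93 and -0.27. Cd40lg and Cd40 stood at 0.25 and 1.22, and Tnfsf13b and Tnfrsf13c at 0.59 and 0.99, none of which passed. Signs were opposite for Tnfsf13b with its other receptor Tnfrsf13b, at 0.59 and -0.94, of which Tnfrsf13b alone passed. They were opposite as well for Tnfsf9 and Tnfrsf9, at 0.36 and -0.52, neither of which passed. Whether ligand and receptor differences themselves differ was not tested.

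Many members lie in groups on the chromosomes, and differences between neighbours were not tested. On chromosome 17 Ltb (lower), Tnf (higher) and Lta (-0.40, not passing) lie side by side with gaps of 3.06 and 1.16 kb and no annotated gene between. Tnfsf9, Cd70 and Tnfsf14, also on chromosome 17 with gaps of 38.2 and 39.7 kb, had log2 fold changes of 0.36, 1.505 and 0.61. On chromosome 4 Tnfrsf1b lies 20.3 kb from Tnfrsf8, with values of -1.16 and -0.26. Tnfsf8 lies 86.2 kb from Tnfsf15, which was at 0.218 to 0.445 in WT and 0.643 and 0.681 in Cebpa-KO. Tnfrsf4 and Tnfrsf18 lie 9.55 kb apart with 2 annotated genes between. On chromosome 6 Cd27, Ltbr and Tnfrsf1a, within gaps of 69.6 and 35.5 kb, were at -0.94, -0.45 and -0.98. Of these Ltbr did not pass and reached the tested set only through WT. These gaps are on mm39, as the deposited tables give them.

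**Figure D5:**
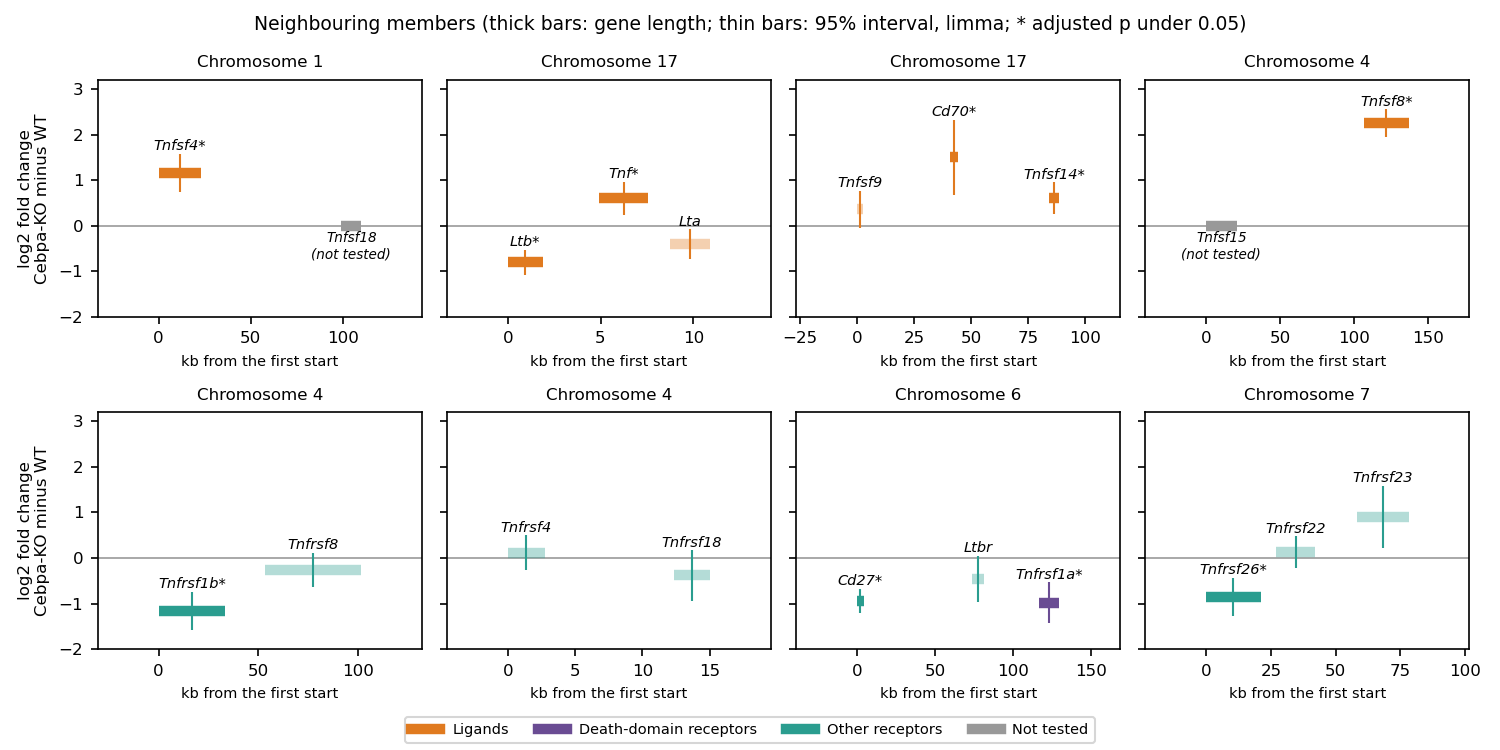
Log2 fold change (Cebpa-KO minus WT) of members that lie within 250 kb of each other, drawn at their distance in kb from the first gene's start in each group on mm39. Thick bars span the gene, thin bars are the 95% interval from limma, pale bars did not pass, and grey genes were not tested. Ltb and Tnf lie 3.06 kb apart on opposite sides of 0, while Cd27, Ltbr and Tnfrsf1a all lie below it. Ltbr reached the tested set only through WT.

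Downstream of the receptors, 48 signalling genes (death-domain adaptors, caspases, kinases, ubiquitin enzymes and NF-kB subunits) were all tested. Of these 4 fell and none rose, 8.33% against 19.7% of all genes, with a median log2 fold change of -0.10. An unadjusted p under 0.05 in limma was found for 14 of them, and for 6113 of all 16254 tested genes. Adam17, the protease that sheds TNF and its receptors, fell from 70.0, 78.6 and 71.5 in WT to 49.3 and 52.5 in Cebpa-KO (log2 fold change -0.52, standard error 0.09, adjusted p = 0.0204). Ikbke, an IKK-related kinase, fell from 134, 143 and 161 to 57.5 and 93.7 (log2 fold change -0.98, adjusted p = 0.0348). The stress kinase gene Map3k5 fell by 0.69 on the log2 scale (adjusted p = 0.0341). Map3k8, a kinase that NF-kB1 holds, and Sharpin, part of the linear ubiquitin ligase, had log2 fold changes of 0.63 and -0.29 and did not pass (adjusted p = 0.0506 and 0.0565).

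The count of rises in this list depended on WT replicate 3. Without it 6 genes rose, Tnfaip3, Nfkbia, Rel, Map3k8, Nfkb2 and Tnip2, and 3 fell. In that fit 2177 of all 15935 tested genes rose and 1825 fell, 25.1% in all. Tnfaip3, the ubiquitin-editing NF-kB inhibitor A20, stood at 54.2, 62.5 and 226 in the WT libraries and at 180.3 and 186 in Cebpa-KO, so that WT replicate 3 was the highest of all. Nfkbia, the NF-kB inhibitor I kappa B alpha, stood at 654, 608 and 1073 in WT, against 1131 and 1424 in Cebpa-KO. The stress genes moved with these values in WT replicate 3 and Cebpa-KO, and their part was not tested.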

How the data were processed

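RNA from 5 libraries was analysed, 3 WT and 2 Cebpa-KO. Since mice were pooled, p-values describe how pools differ. Per the labels' protocols, a SMART-Seq low-input kit was used. STAR 2.7.11b, StringTie 2.1.3b and mm39 are named in the submitters' processing notes. The sources used here give neither annotation release nor strand setting. TPM, as deposited by the authors, is entered as a score because assembled loci and annotated genes repeat the same signal within a column, and only annotated genes were analysed. The deposited FPKM and the deposited coverage, a signal per base, served to estimate depth. These tables hold no read counts, so no count model was used.

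Values sharing a gene ID were added up. Scaling used the median ratio of a library to the geometric mean, over genes reaching a TPM of 1 everywhere (factors 0.984 to 1.04). Genes reaching that level in 2 or more of 5 libraries were tested on log2(scaled TPM + 1) with limma 3.58.1 in R 4.3.3 (intensity trend, Benjamini-Hochberg, two-sided). Fold changes on this scale understate the change of low genes, and the fit was checked on simulated data. Members and lists were chosen with earlier results of these data known, and roles, promoters and motifs after values were seen. Members that passed, or whose mean was at least 20 in either group, are given in full, partners of called members by their values, and the 6 signalling genes with the smallest p by name, of which 1 is not reported here. Tnfrsf13c, Cd40, Fasl, Tnfrsf21 to Tnfrsf23, Tnfaip3, Nfkbia and other genes outside that rule were named after their values were seen. Marker lists of other cells had these sums in WT and Cebpa-KO: plasma cell 778 to 9598 and 1837 to 4898, macrophage 60.3 to 109.3 and 49.6 to 124, neutrophil 9.03 to 63.8 and 57.1 to 274, NK and CD8 T cell 52.2 to 64.6 and 26.1 to 27.4, red cell 61.0 to 709.9 and 235 to 2137. Their part in the results was not tested. Promoter sequences matched 37 of 48 members.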

Additional observations from a re-analysis of the deposited data

How the results depend on the processing

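Changing the pseudocount to 5, leaving TPM unscaled and quantile normalization changed no call or direction among the 25 members given in full. With no filter 2 members rose and 2 fell (930 and 629 of all genes), because many more genes were tested, and with a TPM filter of 5, which drops Cd70 and Tnfsf4, 3 members rose. Array weights gave 8 members higher and 2575 and 2440 genes in all. With WT replicate 3 alone 1 member rose and 3 fell (1014 and 647 genes). Leaving out 1 library gave 0 to 7 members higher and 0 to 8 lower, and 5 to 2177 and 18 to 1825 genes. In these fits with 1 Cebpa-KO library, that library is assumed to vary like WT. Cebpa itself ranged from -3.54 to -3.27, the former with an adjusted p = 0.0512.

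The signalling list had 1 gene higher with a pseudocount of 5, a filter of 5, no scaling or quantile normalization, 4 higher and 7 lower with array weights, 1 lower with no filter and 0 lower with WT replicate 3 alone. Leaving out 1 library gave 0 to 6 higher and 0 to 3 lower. Signs turned for Tnfrsf25, to 0.0388 without WT replicate 1, 0.03 without Cebpa-KO replicate 1 and 0.19 against WT replicate 3 alone, and for Tnfrsf4, to -0.0115 without Cebpa-KO replicate 2 and -0.0153 against WT replicate 3 alone. Leaving out 1 library gave -0.0115 to 0.252 for Tnfrsf4 and -0.18 to 0.0388 for Tnfrsf25. None of these sign changes concerns a call. The cause of these changes was not tested. The comparison with WT replicate 3 alone was chosen after seeing the data.

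The groups share replicate numbers 1 and 2, but no label says that a number marks a shared mouse, litter or day, and the correlations of deviations were -0.18 and 0.27 for the same-numbered libraries. A replicate block gave 6 members higher and 6 lower, 1359 genes higher and 1050 lower in all, and 5 signalling genes higher.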
